A study of Mus musculus with 3 samples.

Results

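The 42 genes described here encode the machinery that copies DNA, from origin licensing to the packaging of new chromatin. They were chosen by name and function, though with earlier results of these data known, and all 42 were among the 18478 genes of the deposited count table. The unit is the unique molecular identifier (UMI, 1 per captured transcript), and each gene reached at least 10 per 1000000 UMIs (CPM) in proliferating Igfbp2-high cells of every run. All 42 passed the filter on low counts. The cells were tdTomato-positive retinal cells from adult mice that carried Glast-CreERT+/tg together with Yap5SA+/tg and ROSA26R-tdTomato+/tg. Tamoxifen activates the Cre in cells that express Glast, mainly Müller glia, and so turns on the tdTomato label and Yap5SA, which is YAP made resistant to inhibition by Hippo signalling. NMDA, an agonist of glutamate receptors that kills retinal neurons, served as the injury, and cells were sorted 2 days later for 10X Chromium libraries. All 3 libraries, called runs 1, 2 and 3, carry Yap5SA and the injury, and no library without either was analysed here, so every comparison is between classes of cells within a run. The labels do not say that the runs are separate animals, and p-values therefore measure only the spread between runs, which may be technical.

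Cells prepare for S phase in G1, when the origin recognition complex, Cdc6 and Cdt1 load the Mcm2 to Mcm7 helicase onto origins, and copy DNA in S phase with polymerases alpha, delta and epsilon, the Pcna clamp and its loader. Most of these genes are transcribed from late G1 into S phase under the control of E2F transcription factors and are low in resting cells. Adult mouse Müller glia, the main glial cells of the retina, normally do not divide, and active YAP promotes their return to the cell cycle. Igfbp2 encodes a secreted protein that binds insulin-like growth factors.

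Cells were put into classes in each run. Igfbp2-high cells held at least 5 Igfbp2 UMIs per 10000 UMIs and Igfbp2-low cells under 1. G2/M cells held at least 4 UMIs of Top2a, Mki67, Ccnb1 and Cdc20 together, and non-cycling cells held 0. All 4 of those genes are expressed mainly from S phase through mitosis, so the non-cycling class can also hold cells in G1 or early S phase. In runs 1, 2 and 3 there were 1225, 1660 and 1395 Igfbp2-high G2/M cells, 518, 378 and 388 Igfbp2-high non-cycling cells, 31, 27 and 37 Igfbp2-low G2/M cells, and 3941, 4523 and 4825 Igfbp2-low non-cycling cells. Median totals in these classes were 23374.5, 14456, 18388 and 9131 UMIs per cell, and the other 5724 of the 24672 cells fell into no class. Counts were summed per class and run, and levels are given as CPM of that sum.

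The sums carried Müller glial markers throughout: the 13 listed markers added up to 7668 CPM in Igfbp2-high G2/M cells, 13883 CPM in Igfbp2-high non-cycling cells, 10654 CPM in Igfbp2-low G2/M cells and 34219 CPM in Igfbp2-low non-cycling cells. Cells with retinal astrocyte markers (Pax2, S100b, Pdgfra, Gja1, Igfbp5) made up 179 of the 1284 Igfbp2-high non-cycling cells, and the 5 listed markers summed to 521, 684 and 626 CPM in that class, against 21.4, 18.6 and 15.5 CPM in Igfbp2-low non-cycling cells. Cells with microglial markers made up 18 of the 95 Igfbp2-low G2/M cells, 14 of them among the 31 of run 1, and their 8 markers summed to 8025, 2354 and 422 CPM in that class, against 7.69, 5.59 and 3.17 CPM in Igfbp2-high G2/M cells. The 10 rod markers stood at 784, 670.2 and 932 CPM in Igfbp2-high and 1833, 1593 and 1720.3 CPM in Igfbp2-low non-cycling cells, and the source of this RNA was not tested. Between 83 and 108 cell barcodes were shared by pairs of runs. Leaving out the astrocyte-marker cells or the shared barcodes left 40 members higher and 1 lower in Igfbp2-high than in Igfbp2-low non-cycling cells, the same counts as with them. Of all genes, 29.4% and 29% were then called higher and 31.4% and 30.7% lower.

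Replication transcripts were abundant in G2/M cells of either Igfbp2 class and low, but not at the same low level, in the non-cycling classes. Summed over the 42 genes they made up 4413, 4445 and 3982 CPM in runs 1, 2 and 3 of Igfbp2-high G2/M cells and 1160.0, 887 and 1049 CPM in Igfbp2-high non-cycling cells. In Igfbp2-low cells the sums were 4108, 3579 and 4220.0 CPM in the G2/M class and 628, 631 and 575 CPM in the non-cycling class. The 3 runs of Igfbp2-high non-cycling cells thus lay above all 3 runs of Igfbp2-low non-cycling cells and far below both G2/M classes, which overlapped each other.

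**Figure D1:**
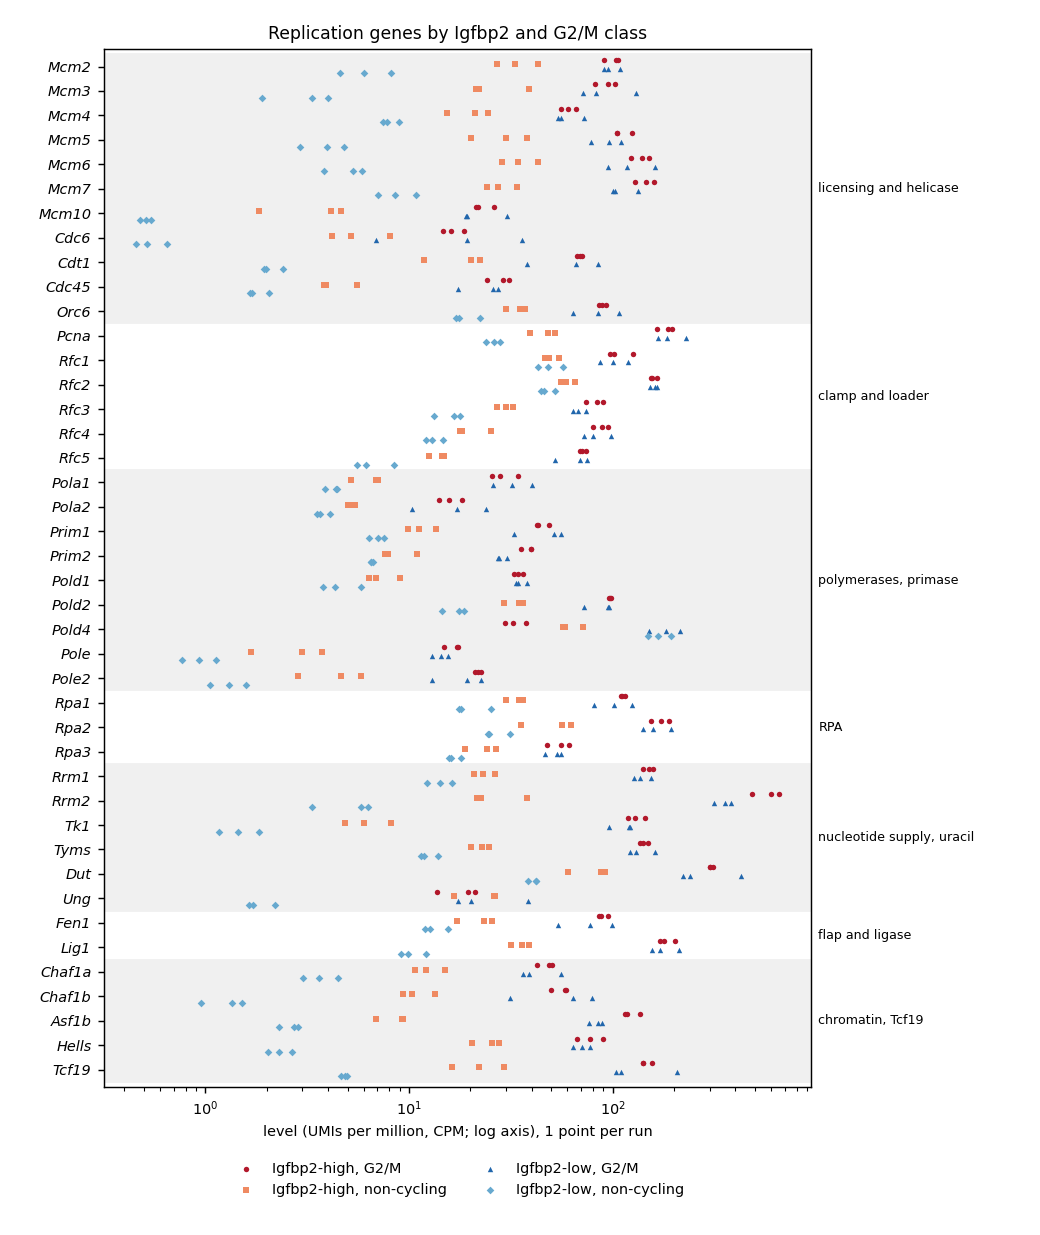
Level of each of the 42 replication genes on a log axis (CPM), grouped by role, with 1 point per run for Igfbp2-high G2/M cells (red circles), Igfbp2-high non-cycling cells (orange squares), Igfbp2-low G2/M cells (dark blue triangles) and Igfbp2-low non-cycling cells (light blue diamonds). In 40 of the 42 genes every orange square lies to the right of every light blue diamond, and for Pold4 the order is turned round. Such separation was not counted over all genes, of which 28.4% were called higher and 31.9% lower between these classes.

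Among non-cycling cells, 40 of the 42 members were higher and 1, Pold4, was lower in Igfbp2-high than in Igfbp2-low cells (edgeR quasi-likelihood, adjusted p under 0.05). Of the 13989 genes tested in that comparison, 28.4% were called higher and 31.9% lower. The member left uncalled was Rfc1, the large subunit of the clamp loader. The median change of the members was 1.22 on the log2 scale, against -0.07 over all genes tested. In the Igfbp2-high G2/M over Igfbp2-high non-cycling comparison 40 members were higher and 2, Pold4 and Ung, lower, where 20.5% of all genes were called higher and 26.9% lower. The median member change there was 1.87, against -0.08 over all genes. Igfbp2-low G2/M cells had 41 members higher than Igfbp2-low non-cycling cells and none lower, with 19.4% of all genes called higher and 18.8% lower, a median member change of 3.32 and a median of -0.11 over all genes. In these comparisons many genes of all kinds were called, so a call alone says little about a member. A value after ± is the standard error (SE) for a log2 change and the SD over 3 runs elsewhere. Without the microglia-marker cells 40 members were higher and 1 lower between the non-cycling classes (30.9% and 33.0% of all genes), 40 and 2 with cycle state in Igfbp2-high cells (22.6% and 29.8%), and 41 and 0 with cycle state in Igfbp2-low cells (15.4% and 17.2%). For 8 members (Chaf1a, Fen1, Mcm7, Orc6, Rfc2, Rfc4, Rfc5 and Tk1) another gene of the table lies on the opposite strand, and whether reads were counted by strand is not given in the sources used here.

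Licensing and helicase genes had the largest median difference between the non-cycling classes among the 7 role groups. All 11 were higher in Igfbp2-high than in Igfbp2-low non-cycling cells, with a median log2 change of 2.84. Mcm2, a helicase subunit, had 106, 104 and 90.4 CPM in Igfbp2-high G2/M cells and 42.8, 33.1 and 26.9 CPM in Igfbp2-high non-cycling cells. In Igfbp2-low cells it had 109, 95.2 and 90.5 CPM in the G2/M class and 8.13, 6.04 and 4.59 CPM in the non-cycling class. The lowest Igfbp2-high non-cycling run lay above the highest Igfbp2-low one, at a log2 change of 2.50 ± 0.11 (SE, 3 runs; edgeR adjusted p = 5.6e-10). Mcm5, another subunit of the helicase, had 105, 124 and 105 CPM in Igfbp2-high G2/M cells and 37.9, 20.2 and 29.9 CPM in Igfbp2-high non-cycling cells. Its levels were 110.5, 77.9 and 96.2 CPM in Igfbp2-low G2/M cells and 4.79, 3.95 and 2.93 CPM in Igfbp2-low non-cycling cells, again without overlap between the non-cycling classes (log2 change 2.95 ± 0.19, edgeR adjusted p = 2.47e-08). The other helicase subunits did not move evenly. Mcm3 and Mcm6 differed by 3.20 and 2.85 on the log2 scale between the non-cycling classes, Mcm7 by 1.74 and Mcm4 by 1.36. Mcm3 averaged 93.3 ± 10.5 CPM in Igfbp2-high and 94.9 ± 30.7 CPM in Igfbp2-low G2/M cells, with 38.6, 21.4 and 22.1 CPM in Igfbp2-high and 3.99, 3.33 and 1.91 CPM in Igfbp2-low non-cycling cells. For Mcm6 the G2/M levels averaged 138 ± 14.2 CPM where Igfbp2 was high and 125 ± 34.0 CPM where it was low, and the non-cycling runs had 43.2, 28.6 and 34.2 CPM where it was high and 5.90, 5.32 and 3.84 CPM where it was low. Both were close to 0 in Igfbp2-low non-cycling cells relative to their G2/M level. Mcm7 averaged 145 ± 15.7 CPM in Igfbp2-high and 112 ± 18.3 CPM in Igfbp2-low G2/M cells, with 34.0, 24.2 and 27.3 CPM in Igfbp2-high and 10.8, 8.55 and 7.08 CPM in Igfbp2-low non-cycling cells. For Mcm4 the G2/M levels averaged 60.5 ± 5.16 CPM where Igfbp2 was high and 60.6 ± 10.0 CPM where it was low, and the non-cycling runs had 24.4, 15.4 and 21.0 CPM where it was high and 7.78, 7.43 and 8.96 CPM where it was low. Mcm4 and Mcm7 thus stood higher, as a part of their own G2/M level, in Igfbp2-low non-cycling cells than Mcm3 and Mcm6 did.

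The loaders Cdc6 and Cdt1 were among the members with the largest differences. Cdc6 had 8.04, 4.18 and 5.2 CPM in Igfbp2-high and 0.458, 0.517 and 0.652 CPM in Igfbp2-low non-cycling cells (log2 change 3.46 ± 0.36, edgeR adjusted p = 2.3e-06), against 16.1, 18.6 and 14.7 CPM in Igfbp2-high and 19.2, 6.92 and 35.9 CPM in Igfbp2-low G2/M cells. The Igfbp2-low G2/M runs of Cdc6 spread widely and enclosed the Igfbp2-high ones. Cdc6 was higher in Igfbp2-high G2/M than in Igfbp2-high non-cycling cells (1.39 ± 0.25), but with the classes set on cells thinned to 3500 UMIs the direction turned (-0.86). Those classes hold other cells: 2356 Igfbp2-high cells counted as non-cycling, against 1284, and 1837 as G2/M, against 4280. Cdt1 differed by 3.13 ± 0.19 and Mcm10, which helps to activate the loaded helicase, by 2.84 ± 0.33 between the non-cycling classes. Cdt1 averaged 68.9 ± 1.79 CPM in Igfbp2-high and 63.0 ± 23.5 CPM in Igfbp2-low G2/M cells, with 22.4, 11.9 and 20.1 CPM in Igfbp2-high and 2.40, 1.95 and 1.98 CPM in Igfbp2-low non-cycling cells. Mcm10 had 4.15, 1.84 and 4.64 CPM in Igfbp2-high and 0.538, 0.476 and 0.512 CPM in Igfbp2-low non-cycling cells. Neither gene's non-cycling runs overlapped. Cdc45, a cofactor of the active helicase, had 5.58, 3.85 and 3.90 CPM in Igfbp2-high and 2.05, 1.70 and 1.65 CPM in Igfbp2-low non-cycling cells, a smaller log2 change of 1.34 ± 0.18. Orc6, a subunit of the origin recognition complex, had 37.1, 29.9 and 34.9 CPM in Igfbp2-high and 22.2, 17.1 and 17.7 CPM in Igfbp2-low non-cycling cells (0.87 ± 0.10). Unlike Cdc6, Orc6 was thus far from 0 in the Igfbp2-low non-cycling class.

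The promoters of Mcm5 and Mcm6 are shown because these helicase genes were higher in non-cycling Igfbp2-high cells and hold an E2F motif, and that of Pold4 because its change ran the other way. Each is the 250 bases before the RefSeq gene start in GRCm38.p6, 5′ to 3′ on the gene's strand, and capitals mark matches to the E2F motifs TTTCCCGC or TTTGGCGC on either strand.
Mcm5 (chr8:75109259-75109508, plus strand): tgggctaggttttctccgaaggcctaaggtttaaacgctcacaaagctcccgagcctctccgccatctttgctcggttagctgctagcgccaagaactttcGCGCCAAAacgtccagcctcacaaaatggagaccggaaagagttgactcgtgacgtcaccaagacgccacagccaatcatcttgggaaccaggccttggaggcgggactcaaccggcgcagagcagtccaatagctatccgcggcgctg
Mcm6 (chr1:128359706-128359955, minus strand): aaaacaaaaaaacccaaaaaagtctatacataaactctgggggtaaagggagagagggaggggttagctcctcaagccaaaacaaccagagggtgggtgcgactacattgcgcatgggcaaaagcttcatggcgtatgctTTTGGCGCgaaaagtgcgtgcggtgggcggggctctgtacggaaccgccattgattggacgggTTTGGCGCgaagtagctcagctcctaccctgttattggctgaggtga
Pold4 (chr19:4231643-4231892, plus strand): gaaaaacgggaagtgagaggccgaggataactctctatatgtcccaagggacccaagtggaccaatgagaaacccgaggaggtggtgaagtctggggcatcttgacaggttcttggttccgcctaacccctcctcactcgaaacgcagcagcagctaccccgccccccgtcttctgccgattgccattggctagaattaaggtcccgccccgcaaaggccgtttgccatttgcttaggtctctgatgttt
Mcm5 held 1 match, on the minus strand, Mcm6 held 2 and Pold4 none. Of the 38 members whose promoter was matched by symbol (all but Mcm4, Pole, Prim2 and Rfc2), 6 held a match (Cdc6, Hells, Mcm5, Mcm6, Mcm7 and Pola1), or 15.8%, against 1.51% of 27025 genes. CCAAT, the NF-Y motif, was in 23 of the 38 (60.5%, against 37.5% of genes), and TTTGAA, the core of the cell cycle homology region found in G2/M genes, in 5 (13.2%, against 18.3%). All 6 members with an E2F match were higher in Igfbp2-high non-cycling cells. Ung, Mcm3, Chaf1b, Cdt1 and Mcm2, which were higher as well, held no such match. The promoters shown were picked by their change and, for Mcm5 and Mcm6, also by the motif. They therefore do not relate motif to direction. A match describes these letters and is not evidence of binding.

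The clamp and its loader differed less. Pcna, the sliding clamp, had 165, 195 and 186 CPM in Igfbp2-high G2/M cells and 48.2, 39.1 and 51.8 CPM in Igfbp2-high non-cycling cells. Igfbp2-low cells had 167, 185 and 229.7 CPM in the G2/M class and 23.8, 27.8 and 26.0 CPM in the non-cycling class. Its log2 change between the non-cycling classes was 0.87 ± 0.11 (edgeR adjusted p = 8.96e-06), with no overlap between runs. Reads of Pcna can be shared with the pseudogene Pcna-ps2, which the table lists at 2.24 CPM in Igfbp2-high and 1.13 CPM in Igfbp2-low non-cycling cells. Of the 5 loader subunits, Rfc5 (1.10), Rfc3 (0.94), Rfc4 (0.66) and Rfc2 (0.37) were called higher. Rfc3 had 32.5, 26.9 and 29.9 CPM in Igfbp2-high and 17.8, 16.7 and 13.3 CPM in Igfbp2-low non-cycling cells. For Rfc4 the G2/M levels averaged 87.6 ± 7.49 CPM where Igfbp2 was high and 83.6 ± 12.8 CPM where it was low, and the non-cycling runs had 25.3, 17.9 and 18.2 CPM where it was high and 14.7, 12.2 and 12.9 CPM where it was low. Rfc5 averaged 71.1 ± 2.25 CPM in Igfbp2-high and 65.1 ± 11.8 CPM in Igfbp2-low G2/M cells, with 14.5, 12.5 and 14.9 CPM in Igfbp2-high and 8.40, 5.55 and 6.15 CPM in Igfbp2-low non-cycling cells. All 3 were separated between the non-cycling classes in the 3 runs. Rfc1 had 46.5, 54.7 and 48.7 CPM in Igfbp2-high and 48.4, 57.3 and 43.2 CPM in Igfbp2-low non-cycling cells, and these runs overlapped (log2 change 0.04 ± 0.10, edgeR adjusted p = 0.728). Rfc1 was still higher in G2/M cells, by 1.02 ± 0.10 where Igfbp2 was high and by 1.00 ± 0.14 where it was low. The levels of Rfc2, at 65.3, 56.0 and 58.7 CPM in Igfbp2-high and 51.9, 44.5 and 46.1 CPM in Igfbp2-low non-cycling cells, showed a small but even difference in the 3 runs.

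Polymerase and primase genes split into a large group with modest changes and Pold4. Of 9 genes, 8 were called higher and 1 lower in Igfbp2-high than in Igfbp2-low non-cycling cells. The catalytic subunit of polymerase epsilon, Pole, and its partner Pole2 differed by 1.62 and 1.81, while the polymerase alpha subunits Pola1 and Pola2 and the primase subunits Prim1 and Prim2 differed by 0.61, 0.50, 0.77 and 0.43. Pole averaged 16.5 ± 1.44 CPM in Igfbp2-high and 14.3 ± 1.33 CPM in Igfbp2-low G2/M cells, with 3.76, 1.67 and 2.97 CPM in Igfbp2-high and 1.13, 0.766 and 0.931 CPM in Igfbp2-low non-cycling cells. For Pole2 the G2/M levels averaged 21.8 ± 0.690 CPM where Igfbp2 was high and 18.2 ± 4.87 CPM where it was low, and the non-cycling runs had 5.83, 2.84 and 4.64 CPM where it was high and 1.59, 1.06 and 1.30 CPM where it was low. Both epsilon genes were several times lower in Igfbp2-low non-cycling cells than in G2/M cells. Pola1 averaged 29.2 ± 4.42 CPM in Igfbp2-high and 32.7 ± 7.15 CPM in Igfbp2-low G2/M cells, with 5.19, 7.02 and 6.87 CPM in Igfbp2-high and 3.85, 4.37 and 4.45 CPM in Igfbp2-low non-cycling cells. Prim1 had 13.6, 9.86 and 11.1 CPM in Igfbp2-high and 7.51, 7.02 and 6.36 CPM in Igfbp2-low non-cycling cells. The alpha and primase genes kept a larger part of their G2/M level there. The calls of Pola2 (adjusted p = 0.0265) and Prim2 (adjusted p = 0.0168) in edgeR were lost without run 3, at log2 changes of 0.52 and 0.29, and that of Pola2 also without run 1, at 0.51, and with Igfbp2 limits of 10 and 0, at 0.45 (adjusted p = 0.0554). On cells thinned to 3500 UMIs edgeR called neither Pola2 (0.05, adjusted p = 0.922) nor Prim2 (0.37, adjusted p = 0.246), Pola1 (0.67, adjusted p = 0.0786) or Pold1 (0.65, adjusted p = 0.0622). Pold1, the catalytic subunit of polymerase delta, differed by 0.73, with 9.08, 6.35 and 6.87 CPM in Igfbp2-high and 5.84, 4.33 and 3.79 CPM in Igfbp2-low non-cycling cells. Pold2, an accessory subunit of the same enzyme, had 36.4, 29.4 and 34.7 CPM in Igfbp2-high and 18.6, 17.6 and 14.5 CPM in Igfbp2-low non-cycling cells (1.02 ± 0.10, edgeR adjusted p = 1.23e-06).

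Pold4, the smallest subunit of polymerase delta, ran against the other members. It had 32.5, 37.7 and 29.7 CPM in Igfbp2-high G2/M cells and 56.9, 71.9 and 58.5 CPM in Igfbp2-high non-cycling cells. In Igfbp2-low cells it had 151, 215 and 182 CPM in the G2/M class and 149, 194 and 167 CPM in the non-cycling class. All Igfbp2-low runs lay above all Igfbp2-high runs, and the 2 Igfbp2-low classes overlapped. The log2 change was -1.42 ± 0.08 between the non-cycling classes and -2.44 ± 0.10 between the G2/M classes (edgeR adjusted p = 3.97e-09 and 7.61e-09). With cycle state, Pold4 fell by 0.99 in G2/M over non-cycling cells where Igfbp2 was high, and changed by 0.03 ± 0.09 where it was low (edgeR adjusted p = 2.71e-07 and 0.823). With the microglia-marker cells left out, Pold4 differed by -1.41 between the non-cycling classes. That step left 1284 of 1284 Igfbp2-high and 13260 of 13289 Igfbp2-low non-cycling cells, so this value could hardly move. It took 18 of the 95 Igfbp2-low G2/M cells, and the Pold4 values that rest on that class are not given without them.

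The 3 subunits of RPA, which coats single-stranded DNA, were all called higher in Igfbp2-high non-cycling cells, by 0.96 for Rpa2, 0.77 for Rpa1 and 0.52 for Rpa3. Rpa2 averaged 172 ± 17.1 CPM in Igfbp2-high and 164 ± 27.3 CPM in Igfbp2-low G2/M cells, with 62.8, 35.6 and 56.1 CPM in Igfbp2-high and 31.4, 24.4 and 24.8 CPM in Igfbp2-low non-cycling cells. For Rpa1 the G2/M levels averaged 112 ± 2.91 CPM where Igfbp2 was high and 103 ± 21.8 CPM where it was low, and the non-cycling runs had 36.4, 29.9 and 34.7 CPM where it was high and 25.1, 18.01 and 17.7 CPM where it was low. The non-cycling runs of both were apart. Rpa3 had 24.2, 18.9 and 26.7 CPM in Igfbp2-high and 15.8, 16 and 18.04 CPM in Igfbp2-low non-cycling cells, the narrowest gap of the 3, with the lowest Igfbp2-high run close to the highest Igfbp2-low run. In G2/M cells Rpa3 reached 47.5, 55.6 and 60.8 CPM where Igfbp2 was high and 56.0, 46.7 and 53.1 CPM where it was low.

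Among the genes of nucleotide supply, Rrm2 and Tk1 changed most with cycle state. Rrm2, the small subunit of ribonucleotide reductase, had 656, 601 and 482 CPM in Igfbp2-high G2/M cells and 38.0, 22.6 and 21.5 CPM in Igfbp2-high non-cycling cells. Igfbp2-low cells had 357, 379 and 316 CPM in the G2/M class and 5.82, 6.27 and 3.33 CPM in the non-cycling class. No class overlapped another. The change of Rrm2 with cycle state in Igfbp2-high cells, 4.32 ± 0.15 (edgeR adjusted p = 6.1e-11), and that of Tk1, the thymidine kinase of the salvage pathway, 4.25 ± 0.12, lay within the SE of each other. Tk1 had 143, 129 and 119 CPM in Igfbp2-high G2/M and 8.17, 6.02 and 4.83 CPM in Igfbp2-high non-cycling cells. The large subunit Rrm1 had 26.6, 20.9 and 23.0 CPM in Igfbp2-high and 16.2, 14.2 and 12.3 CPM in Igfbp2-low non-cycling cells (0.76 ± 0.10). Tyms, which makes thymidylate, and Dut, which removes dUTP, differed by 0.90 and 0.99. Tyms averaged 142 ± 6.42 CPM in Igfbp2-high and 138 ± 21.0 CPM in Igfbp2-low G2/M cells, with 24.8, 20.2 and 22.8 CPM in Igfbp2-high and 13.8, 11.5 and 11.8 CPM in Igfbp2-low non-cycling cells. For Dut the G2/M levels averaged 304 ± 6.68 CPM where Igfbp2 was high and 296 ± 113 CPM where it was low, and the non-cycling runs had 91.4, 60.02 and 87.8 CPM where it was high and 42.1, 38.6 and 41.8 CPM where it was low. Dut, unlike Rrm2, thus stood well above 0 in every class.

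Ung, the glycosylase that removes uracil from DNA, and the loader Cdc6 had the largest changes of all members between the non-cycling classes, within the SE of each other. Cdc6 exceeded Ung without run 3, in the cells the authors kept and on thinned cells. Ung stood at 26.2, 16.6 and 26.4 CPM in Igfbp2-high and 2.21, 1.64 and 1.72 CPM in Igfbp2-low non-cycling cells (log2 change 3.66 ± 0.20, edgeR adjusted p = 3.9e-09). Its G2/M levels were 21.0, 19.4 and 13.8 CPM in Igfbp2-high and 38.4, 17.3 and 20.1 CPM in Igfbp2-low cells. The Igfbp2-high G2/M and non-cycling runs overlapped, and the call of Ung as lower in Igfbp2-high G2/M cells (-0.42 ± 0.16, edgeR adjusted p = 0.0435) was lost without run 1 (-0.44, adjusted p = 0.086) and without run 3 (-0.07, adjusted p = 0.756). DESeq2 did not call it either (adjusted p = 0.107). The value moved with the limits of the classes, to -1.30 with a G2/M limit of 8 UMIs, to -3.32 with classes set on thinned cells and to 2.38 against quiet non-cycling cells alone, which are described further on.

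Fen1, which trims the flaps of Okazaki fragments, and Lig1, which seals them, differed by 0.74 and 1.81 between the non-cycling classes. Lig1 averaged 184 ± 17.2 CPM in Igfbp2-high and 179.9 ± 29.3 CPM in Igfbp2-low G2/M cells, with 38.9, 31.6 and 36.0 CPM in Igfbp2-high and 9.91, 12.1 and 9.15 CPM in Igfbp2-low non-cycling cells. Fen1 had 23.3, 17.2 and 25.6 CPM in Igfbp2-high and 15.5, 11.9 and 12.7 CPM in Igfbp2-low non-cycling cells. The runs of either gene did not overlap. Chromatin genes showed larger differences: Hells, a chromatin remodeller, had 27.7, 20.4 and 25.4 CPM in Igfbp2-high and 2.67, 2.297 and 2.03 CPM in Igfbp2-low non-cycling cells (3.43 ± 0.15, edgeR adjusted p = 6.88e-10). Chaf1b and Chaf1a, subunits of the histone chaperone CAF-1, differed by 3.16 and 1.78. For Chaf1b the G2/M levels averaged 55.7 ± 4.89 CPM where Igfbp2 was high and 58.1 ± 24.5 CPM where it was low, and the non-cycling runs had 13.4, 9.36 and 10.4 CPM where it was high and 1.51, 1.35 and 0.955 CPM where it was low. Chaf1a averaged 47.1 ± 3.99 CPM in Igfbp2-high and 43.7 ± 10.7 CPM in Igfbp2-low G2/M cells, with 12.1, 10.7 and 15.04 CPM in Igfbp2-high and 4.50, 3.62 and 3.03 CPM in Igfbp2-low non-cycling cells. Chaf1b was close to 0 in Igfbp2-low non-cycling cells. The histone chaperone gene Asf1b had 9.34, 6.85 and 9.29 CPM in Igfbp2-high and 2.85, 2.73 and 2.305 CPM in Igfbp2-low non-cycling cells (1.71 ± 0.14), and Tcf19 had 22.2, 16.2 and 29.2 CPM in Igfbp2-high and 4.98, 4.86 and 4.66 CPM in Igfbp2-low cells of that state (2.23 ± 0.17). Both were far higher in G2/M cells, Asf1b at 137, 115 and 117 CPM and Tcf19 at 141, 140.2 and 156 CPM where Igfbp2 was high.

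The question which members stay detectable in Igfbp2-high non-cycling cells was asked first of levels. The median member kept 25.8% ± 5.06 of its Igfbp2-high G2/M level in Igfbp2-high non-cycling cells (SD over 3 runs, 29.3%, 20.001% and 28.1% in runs 1, 2 and 3). The 10 members that kept most were Pold4 (188% ± 11.1), Ung (134% ± 53.5), Rfc1 (46.5% ± 3.26), Rpa3 (43.0% ± 8.55), Orc6 (38.2% ± 3.72), Rfc2 (37.8% ± 1.76), Rfc3 (36.5% ± 5.64), Cdc6 (35.9% ± 13.7), Pold2 (34.6% ± 3.34) and Mcm2 (34.0% ± 5.61). From Rfc1 to Mcm2 neighbours in this order lay within the SD of each other. The 6 that kept least were Rrm2 (4.67% ± 1.03), Tk1 (4.81% ± 0.824), Asf1b (6.90% ± 0.990), Tcf19 (15.4% ± 3.60), Rrm1 (15.7% ± 2.20) and Cdc45 (15.8% ± 2.37). Rrm2, Tk1 and Asf1b lay below every other member by more than their SD. Mcm5 kept 26.9% ± 9.93 and Pcna 25.7% ± 4.98. In Igfbp2-low non-cycling cells the median member stood at 9.20% ± 1.24 of the Igfbp2-high G2/M level.

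Detection was then compared at equal depth, with each cell thinned at random to 3500 UMIs, which left out no cell. At that depth 34 of the 42 members had a UMI in at least 10% of Igfbp2-high G2/M cells (mean over runs), 12 in Igfbp2-high non-cycling cells and 4 in Igfbp2-low non-cycling cells. The share was higher in Igfbp2-high than in Igfbp2-low non-cycling cells in every run for 39 members and lower in every run for 1. Detection was not computed over all genes, so these counts describe the members alone. Mcm2 was found in 12.4%, 10.1% and 9.02% of Igfbp2-high non-cycling cells, against 2.61%, 1.95% and 1.37% of Igfbp2-low non-cycling cells. Astrocyte-marker cells of the Igfbp2-high non-cycling class, which had 12160 UMIs per cell at the median, held Mcm2 in 0.565% ± 0.979 and Mcm5 in 1.62% ± 1.59 of cells (SD, n = 3). Without thinning, Mcm2 was found in 27.3% ± 3.004 of Igfbp2-high and 5.56% ± 1.65 of Igfbp2-low non-cycling cells.

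Mcm5 was detected in 31.1% ± 2.98 of Igfbp2-high G2/M, 9.70% ± 2.66 of Igfbp2-high non-cycling and 1.33% ± 0.488 of Igfbp2-low non-cycling cells. Rrm2, found in 77.7% ± 5.85 of Igfbp2-high G2/M cells, was found in 7.53% ± 3.87 of Igfbp2-high and 1.94% ± 0.701 of Igfbp2-low non-cycling cells. Rfc1 was found about as often in Igfbp2-high (17.5% ± 1.94) as in Igfbp2-low (15.98% ± 2.19) non-cycling cells and in astrocyte-marker cells (14.5% ± 4.06), a difference within the SD between runs. Pold4 was found in 17.2% ± 3.10 of Igfbp2-high and 35.8% ± 2.58 of Igfbp2-low non-cycling cells, while in Igfbp2-high G2/M cells its share was 9.78% ± 1.54.

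The transcripts were spread unevenly over the Igfbp2-high non-cycling cells. At 3500 UMIs the median cell held 2 UMIs of the 42 genes together in each run of Igfbp2-high non-cycling cells and also 2 in each run of Igfbp2-low non-cycling cells. The median G2/M cell held 15, 15 and 13 where Igfbp2 was high and 15, 11 and 15 where it was low. Cells with at least 10 such UMIs made up 79.6% of Igfbp2-high G2/M cells, 12.2% of Igfbp2-high non-cycling cells, 70.5% of Igfbp2-low G2/M cells and 0.391% of Igfbp2-low non-cycling cells. In runs 1, 2 and 3 the share was 16.2%, 8.73% and 10.3% of Igfbp2-high and 0.355%, 0.398% and 0.415% of Igfbp2-low non-cycling cells. The non-cycling classes thus differed in a tail of cells rich in replication transcripts, while their medians were equal.

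**Figure D2:**
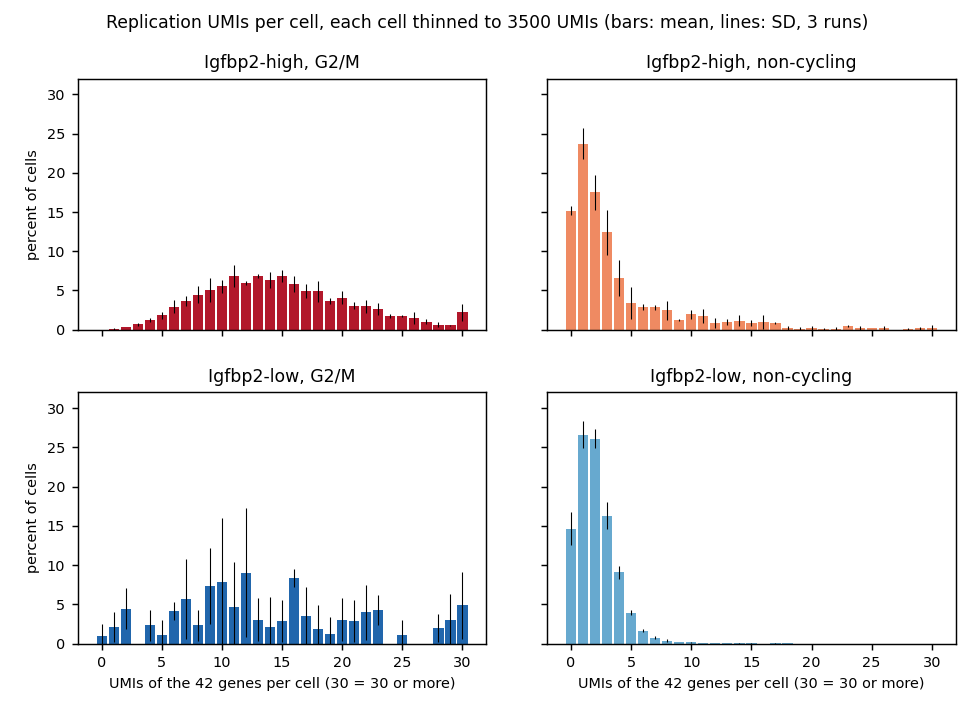
Percent of cells (mean of 3 runs, lines show the SD) by the number of UMIs of the 42 replication genes in a cell thinned to 3500 UMIs, with 30 standing for 30 or more, for the 4 classes. The Igfbp2-high G2/M cells peak near their median of 14, both non-cycling classes pile up at 0 to 3, and a tail of cells with 10 or more is visible in the Igfbp2-high (12.2%) but not in the Igfbp2-low non-cycling class (0.391%).

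To place that tail, the 1105 Igfbp2-high non-cycling cells without astrocyte markers were divided, after the data were seen, by their UMIs of 77 other S and G2/M phase genes that are no members, at 3500 UMIs. There were 417 quiet cells (0 or 1 UMI), 450 intermediate cells (2 to 5) and 238 cycle-gene-rich cells (6 or more). These lists rise and fall with the members in proliferating cells, so the member levels of the 3 bins are a description. The summed member level was 464, 577 and 482 CPM in quiet, 887, 712 and 862 CPM in intermediate and 3476, 3278 and 2764 CPM in cycle-gene-rich cells of runs 1, 2 and 3. Quiet cells thus lay below the intermediate ones, and cycle-gene-rich cells came near the G2/M class while lacking all 4 G2/M genes. The share of cycle-gene-rich cells was 25.4%, 15.6% and 21.9% in runs 1, 2 and 3, and run 2 also had the lowest summed member level in the undivided class.

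The median member stood at 9.17% ± 1.03 of the Igfbp2-high G2/M level in quiet, 19.3% ± 3.83 in intermediate and 81.6% ± 3.13 in cycle-gene-rich cells. The members were not alike in the cycle-gene-rich cells. Ung stood at 564% ± 102 of its G2/M level there, Cdc6 at 180.0% ± 47.9, Hells at 141% ± 5.58, Mcm2 at 125% ± 41.1, Mcm4 at 112% ± 17.9 and Chaf1a at 111% ± 24.8. Of these, Ung, Cdc6, Hells and Mcm4 exceeded 100% in every run. Tk1 (23.2% ± 7.96), Rrm2 (23.4% ± 3.12), Asf1b (34.2% ± 8.82), Rrm1 (46.1% ± 3.68) and Tyms (49.0% ± 0.429) were the 5 members under 50% in every run. Among the licensing and helicase genes Mcm10 (66.9% ± 15.8) and Cdc45 (74.1% ± 20.1) were the lowest. In Igfbp2-high cells with 1 to 3 UMIs of the 4 G2/M genes the same members stood at the ends, with Ung at 372% ± 78.7, Cdc6 at 163% ± 4.34, Hells at 122% ± 19.0, Rrm2 at 33.4% ± 1.40 and Tk1 at 34.8% ± 3.27.

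**Figure D3:**
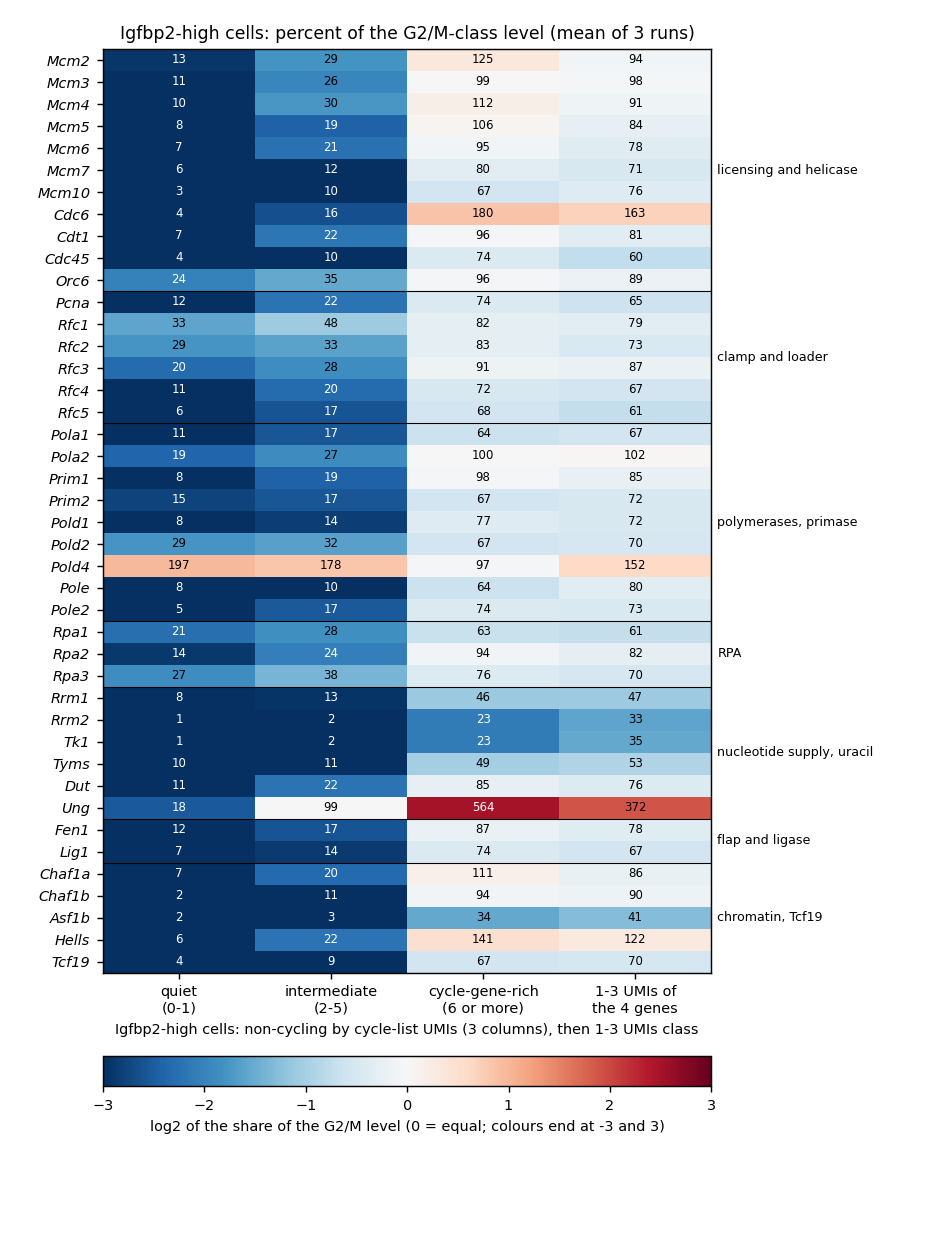
Level of each replication gene in Igfbp2-high cells as a percent of its Igfbp2-high G2/M level (numbers, mean of 3 runs; colours on a log2 scale), for quiet, intermediate and cycle-gene-rich non-cycling cells and for cells with 1 to 3 UMIs of the 4 G2/M genes. Ung is at 564% in cycle-gene-rich cells and Rrm2 and Tk1 at 23.4% and 23.2%, while in quiet cells Pold4 alone exceeds 100%.

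Setting quiet Igfbp2-high against quiet Igfbp2-low cells without astrocyte markers, a comparison added after the data were seen, left far fewer differences. Of the 42 members 8 were called higher and 2 lower by edgeR (adjusted p under 0.05), where 22.7% of the 13384 genes tested were called higher and 23.2% lower, so the members' shares were close to or below the background. The median member change was 0.21. Against these quiet cells, 41 members were higher and 1 lower in Igfbp2-high G2/M cells (19.3% and 18.4% of all genes), and 41 and 0 in Igfbp2-low G2/M cells (18.8% and 20.5%). Quiet cells were chosen for few UMIs of genes that rise and fall with the members. The direction of these counts was thus largely set by the choice of cells. The summed member level was 464, 577 and 482 CPM in quiet Igfbp2-high and 612, 622 and 549.9 CPM in quiet Igfbp2-low cells, sums that include Pold4 and whose runs overlapped. Levels and detection shares of quiet Igfbp2-low cells, here and below, left out microglia-marker cells (7442 cells). The fits kept them (7454 cells). The 77 genes that chose these cells did not all stand alike: the S phase list stood at 221 and 212 CPM and the G2/M list at 167 and 119.5 CPM in quiet Igfbp2-high and quiet Igfbp2-low cells. In the G2/M list edgeR called 4 of 44 genes higher, Cks1b by 2.01 ± 0.13 among them, and 2 lower, with Cenpa at -1.37 ± 0.37. In the S phase list it called 5 of 33 higher, with Ccne1 at 1.89 ± 0.37.

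Markers of cell types also moved between the quiet classes. The 13 Müller glial markers summed to 17627, 12945 and 13835 CPM in quiet Igfbp2-high and 38006, 32076 and 31844 CPM in quiet Igfbp2-low cells, with 12 called lower by edgeR and 1, the water channel gene Aqp4, higher (0.46 ± 0.16). The 10 rod markers, all called lower, summed to 923, 579 and 1084 CPM in quiet Igfbp2-high and 1749, 1546 and 1736 CPM in quiet Igfbp2-low cells. The 5 astrocyte markers summed to 3.79, 12.5 and 34.5 CPM in quiet Igfbp2-high and 19.98, 17.5 and 13.04 CPM in quiet Igfbp2-low cells. Of the 3 astrocyte markers tested, Gja1, a gap junction gene, was higher in edgeR (3.42, adjusted p = 0.0128) on 7 UMIs in quiet Igfbp2-high cells. The 8 microglial markers summed to 12.9, 7.11 and 6.44 CPM in quiet Igfbp2-high and 4.31, 2.54 and 0.660 CPM in quiet Igfbp2-low cells. Microglia-marker cells were left out of the Igfbp2-low sums, and the Igfbp2-high non-cycling class held none. The microglial sums are thus partly set by the choice of cells. In the fit, which kept microglia-marker cells, 1 microglial marker was called lower and none higher. Runs of the quiet classes were apart in the Müller and rod sums and overlapped in the astrocyte sum. The part of these markers in the member changes was not tested.

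The 8 members called higher in quiet Igfbp2-high cells were Mcm3 (1.97 ± 0.28), Hells (1.59 ± 0.34), Mcm5 (1.54 ± 0.28), Mcm2 (1.44 ± 0.22), Cdt1 (1.43 ± 0.34), Ung (1.32 ± 0.39), Mcm6 (1.27 ± 0.25) and Pold2 (0.90 ± 0.14). Mcm2 had 10.2, 19.2 and 10.5 CPM in quiet Igfbp2-high cells (91 UMIs in all) and 6.40, 5.30 and 4.04 CPM in quiet Igfbp2-low cells (edgeR adjusted p = 8.23e-05). Mcm3 had 8.71, 12.5 and 9.95 CPM (70 UMIs) in quiet Igfbp2-high and 3.22, 3.33 and 1.79 CPM in quiet Igfbp2-low cells. Neither gene's runs overlapped. The same held for Mcm5, with 8.71, 10.5 and 7.02 CPM in quiet Igfbp2-high and 4.07, 3.45 and 2.25 CPM in quiet Igfbp2-low cells, and for Pold2, with 26.5, 31.4 and 26.9 CPM in quiet Igfbp2-high and 17.0, 17.4 and 13.7 CPM in quiet Igfbp2-low cells. Mcm4 and Mcm7, subunits of the same helicase ring, were not called, with 4.17, 6.27 and 7.02 CPM of Mcm4 in quiet Igfbp2-high and 7.09, 6.78 and 8.38 CPM in quiet Igfbp2-low cells (log2 change -0.31 ± 0.27, edgeR adjusted p = 0.376) and a change of 0.19 ± 0.25 for Mcm7. Whether Mcm4 and Mcm7 differ from the other subunits was not tested. Ung rested on 23 UMIs, Cdt1 on 34 and Hells on 32 in quiet Igfbp2-high cells.

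These calls depended on where quiet was set. For the settings that follow no share over all genes was computed, so their counts describe the members alone. With other size factors, with DESeq2 and without the run block the same 8 were called. Without run 2 Ung was lost (0.84, adjusted p = 0.166), and without run 1 Mcm7, Rpa1 and Tyms were added. With cells allowed 2 UMIs of the other cycle genes 12 members were called, all 8 among them. With cells at 0 such UMIs, 169 Igfbp2-high and 3046 Igfbp2-low cells, edgeR called 3 higher: Mcm2 (1.03, adjusted p = 0.0112), Pold2 (0.72, adjusted p = 0.0152) and Tyms (0.67, adjusted p = 0.0389). It called 2 lower, Pold4 (-1.30, adjusted p = 8.48e-07) and Prim2 (-2.13, adjusted p = 0.00264), which with up to 1 UMI allowed stood at -0.25 ± 0.23 and was not called (adjusted p = 0.399). Mcm3 (1.19), Ung (1.43), Mcm5 (0.92) and Mcm6 (0.74) kept a positive change without passing, and Cdt1 (0.10) and Hells (0.16) were close to 0. The median total of quiet Igfbp2-high cells, 16005 UMIs, exceeded that of quiet Igfbp2-low cells, 9171.5 UMIs, and the part of this gap in the fitted changes was not tested.

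Called lower in quiet Igfbp2-high cells were Pold4, with 60.6, 66.9 and 67.3 CPM against 153, 200.4 and 163 CPM in quiet Igfbp2-low cells (-1.32 ± 0.10, edgeR adjusted p = 8.8e-08), and Rfc1, with 32.6, 41.8 and 33.4 CPM against 49.6, 56.6 and 41.8 CPM in quiet Igfbp2-low cells (-0.37 ± 0.14, edgeR adjusted p = 0.0394). The highest Rfc1 run of quiet Igfbp2-high cells reached the lowest of quiet Igfbp2-low cells, and the edgeR call was lost without run 1 (-0.33, adjusted p = 0.118), without run 2 (-0.38, adjusted p = 0.0774) and without the run block (-0.37, adjusted p = 0.118). It was also lost with limits of 0 UMIs (-0.40, adjusted p = 0.0981) and 2 UMIs (-0.27, adjusted p = 0.0838) in edgeR. Members with large differences over all non-cycling cells whose change in quiet cells did not pass included Cdc6 (0.39 ± 1.12, 4 UMIs in quiet Igfbp2-high cells), Chaf1b (0.66 ± 0.78), Mcm10 (0.70 ± 0.78), Rrm2 (0.24 ± 0.30) and Tk1 (0.36 ± 0.40). Mcm10 rested on 5 UMIs and Chaf1b on 10 in quiet Igfbp2-high cells, which limits their precision.

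In detection at 3500 UMIs, 8 members had a higher share in quiet Igfbp2-high than in quiet Igfbp2-low cells in every run and 7 a lower one. Here too no count over all genes was made. Mcm2 was found in 4.21% ± 2.02 of quiet Igfbp2-high and 1.76% ± 0.640 of quiet Igfbp2-low cells, Mcm3 in 3.75% ± 1.06 of quiet Igfbp2-high and 1.00% ± 0.483 of quiet Igfbp2-low cells and Hells in 2.19% ± 0.309 of quiet Igfbp2-high and 0.504% ± 0.145 of quiet Igfbp2-low cells. Pold2 was found in 9.91% ± 3.29 of quiet Igfbp2-high and 5.09% ± 0.986 of quiet Igfbp2-low cells and in 4.46% ± 3.87 of astrocyte-marker cells. Mcm5, at 1.84% ± 0.890 of quiet Igfbp2-high and 1.10% ± 0.531 of quiet Igfbp2-low cells, was not above the 1.62% ± 1.59 of astrocyte-marker cells beyond the SD, and Rrm2, at 1.11% ± 0.992 of quiet Igfbp2-high and 1.70% ± 0.540 of quiet Igfbp2-low cells, was below the 4.44% ± 2.44 there. Members found in at least 10% of quiet Igfbp2-high cells numbered 4, as many as in quiet Igfbp2-low cells, and they were Rfc1 (13.99% ± 3.05), Rfc2 (13.5% ± 4.12), Dut (10.7% ± 1.21) and Pold4 (16.1% ± 1.78).

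**Figure D4:**
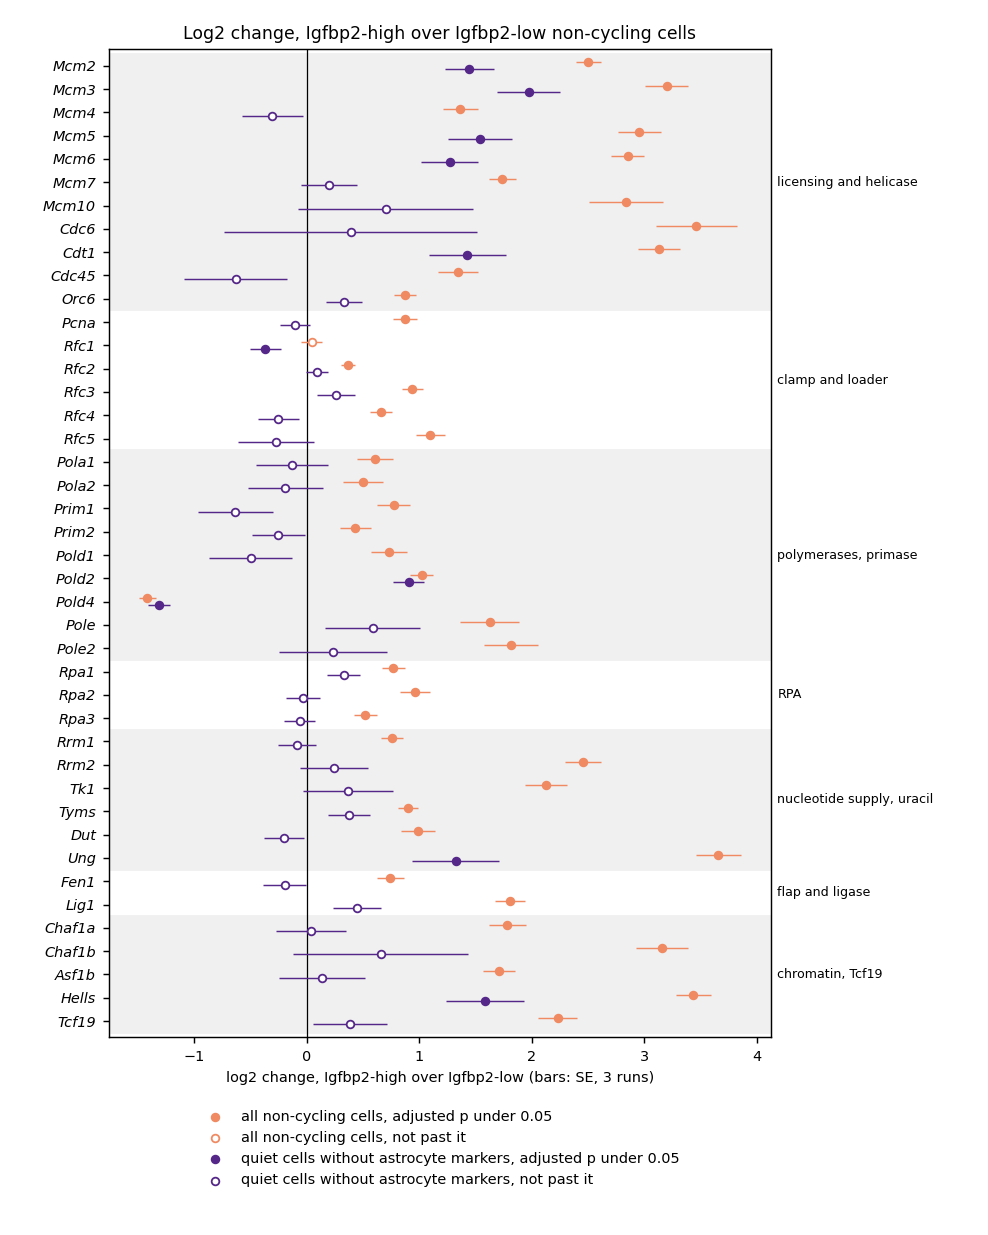
Log2 change of each replication gene in Igfbp2-high over Igfbp2-low cells, with SE bars from the edgeR fit over 3 runs, for all non-cycling cells (orange) and for quiet cells without astrocyte markers (purple), with filled points past an adjusted p of 0.05. Orange points are filled for 41 genes and purple ones for 10, and Pold4 is the only gene far left of 0 in both (-1.42 and -1.32).

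Between the G2/M classes the members differed little. Igfbp2-high over Igfbp2-low G2/M cells had 2 members called higher and 1 lower by edgeR, where 9.09% of all genes were called higher and 8.67% lower, and the median member change was 0.08. The called members were Rrm2, with 656, 601 and 482 CPM in Igfbp2-high and 357, 379 and 316 CPM in Igfbp2-low G2/M cells (0.73 ± 0.14, adjusted p = 0.00197), Asf1b (0.56 ± 0.11, adjusted p = 0.00325) and Pold4. The 95 Igfbp2-low G2/M cells limit this comparison, and it moved when a run was left out. Without run 3, 4 members were called higher (10.8% of all genes) and the median over all genes moved from 0.03 to 0.24. Without run 2, 2 were called higher (8.65% of all genes) and that median was 0.18. Without run 1, 3 were called higher (6.28% of all genes) and it was 0.05. With astrocyte-marker cells left out, 6 were called higher (15.2% of all genes). With microglia-marker cells left out 2 were higher and 1 lower (8.58% and 5.42% of all genes). In the fit with quiet cells 5 were higher and 1 lower (13.9% and 7.42% of all genes).

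The log2 change with cycle state, G2/M over non-cycling, was lower in Igfbp2-high than in Igfbp2-low cells for 36 of the 42 members and higher for none (interaction in edgeR, adjusted p under 0.05), where 9.21% of all genes had a lower and 6.65% a higher change. The median difference was -1.06 on the log2 scale. It was widest for Ung (-4.13 ± 0.46), Cdc6 (-3.83 ± 0.58), Hells (-3.30 ± 0.25), Chaf1b (-3.24 ± 0.33) and Mcm3 (-3.19 ± 0.30), and not called for Fen1, Pola2, Pold1, Prim2, Rfc1 and Rpa3. By arithmetic it equals the Igfbp2 difference among G2/M cells minus that among non-cycling cells, and so is not a separate measurement. The count was 19 without run 3 (4.56% of all genes lower), 27 without run 1 (5.7%) and 28 without run 2 (2.95%). It was 8 when quiet cells without astrocyte markers stood for the non-cycling classes (4.14% of all genes lower and 5.81% higher). Without the microglia-marker cells it was 37 (7.05% of all genes lower and 5.26% higher).

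Replication genes outside the 42 moved in the same way. Of 45 others tested (46 listed), 36 were higher and 3 lower in Igfbp2-high than in Igfbp2-low non-cycling cells (28.4% and 31.9% of all genes). In Igfbp2-high G2/M over Igfbp2-high non-cycling cells 42 were higher and 1 lower (20.5% and 26.9% of all genes, edgeR adjusted p under 0.05). The largest changes between the non-cycling classes among those with a mean of at least 10 CPM over the 4 classes were in Cdca7 (4.38 ± 0.28), 2810417H13Rik (3.19 ± 0.16), Dscc1 (3.09 ± 0.24) and Dtl (2.73 ± 0.21). Cdca7 encodes a partner of Hells, and Dtl a substrate receptor of the ubiquitin ligase that degrades Cdt1. With cycle state in Igfbp2-high cells the largest were 2810417H13Rik (3.41 ± 0.14), Chtf18 (3.16 ± 0.18), Dbf4, the activator of the Cdc7 kinase (3.15 ± 0.13), and Clspn (2.68 ± 0.13). In quiet cells 11 of the 45 were higher and 2 lower (22.7% and 23.2% of all genes), but 15 of the 45 are among the 77 genes that chose these cells, so their levels there are partly set by the choice. Of the 30 others, 8 were higher and 2 lower. Dbf4 had 9.09, 8.78 and 8.78 CPM in quiet Igfbp2-high and 2.08, 2.39 and 2.79 CPM in quiet Igfbp2-low cells (1.95 ± 0.26, edgeR adjusted p = 3.01e-05).

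Of the 8 E2F genes, 6 were higher and 1 lower in Igfbp2-high than in Igfbp2-low non-cycling cells (28.4% and 31.9% of all genes), and 7 were higher and 1 lower in Igfbp2-high G2/M than in Igfbp2-high non-cycling cells (20.5% and 26.9%). E2f8, a repressor of E2F targets, had the largest change in both (2.92 ± 0.37 and 4.03 ± 0.18). The activator E2f1 had 36.2, 24.4 and 35.1 CPM in Igfbp2-high and 12.1, 13.4 and 11.5 CPM in Igfbp2-low non-cycling cells (1.40 ± 0.12, edgeR adjusted p = 4.6e-07). E2f4, which acts mainly with pocket proteins in resting cells, had 40.1, 37.8 and 47.7 CPM in Igfbp2-high and 21.1, 19.4 and 21.0 CPM in Igfbp2-low non-cycling cells (1.05 ± 0.09), and E2f6 changed by 0.50 ± 0.10. E2f5 was lower in Igfbp2-high G2/M than in Igfbp2-high non-cycling cells (-0.43 ± 0.08). In quiet cells 3 of the 8 were higher in Igfbp2-high cells, among them E2f1 (0.52 ± 0.20, edgeR adjusted p = 0.044) and E2f4 (0.98 ± 0.13, edgeR adjusted p = 2.77e-05), and none lower (22.7% and 23.2% of all genes). E2f1, E2f2 and E2f8 are among the 77 genes that chose these cells, and of the 5 others 2 were higher.

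The class limits were set within continuous ranges. Igfbp2-high cells with 4 to 7 UMIs of the 4 G2/M genes had a summed member level of 4424 CPM, those with 8 or more had 4257 CPM. Those just outside, with 2 to 3 UMIs, had 3724 CPM, and those with 1 UMI 2164 CPM. Among non-cycling cells the sum was 995 CPM at 5 to 10 Igfbp2 UMIs per 10000, 1038 CPM at 10 or more, and 618 CPM in the 2436 cells between 1 and 5. The sums at 8 or more and at 4 to 7 UMIs were thus close, those at 2 to 3 and at 1 UMI were lower, and the sum was lower just below than just above the Igfbp2 limit.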

How the data were processed

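Single-cell RNA was measured in 3 libraries of sorted retinal cells. The authors deposited 1 table of raw UMI counts (18478 genes, 24695 cells) and 1 table of normalized values, made, per the submitters' processing notes, with Cell Ranger and Seurat 2.3.4 on mm10. The deposited normalized values are the natural log (ln) of 1 plus counts per 10000 UMIs, for 13511 of the cells, and were used only to mark the cells the authors kept. Runs held 94844636, 122871274 and 96947668 UMIs, with medians of 9665, 11207 and 9418 UMIs per cell.

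Cells with under 500 genes or over 20% mitochondrial UMIs (23) were left out. Doublets were not removed by a caller, and leaving out the 5% of cells with the highest totals was an alternative. Counts were summed over 4 classes in 3 runs (12 sums) and fitted with edgeR 4.0.16 (quasi-likelihood, TMM, filterByExpr, run as a block, Benjamini-Hochberg over 13989 genes; R 4.3.3). The run block pairs classes of the same library. The 5 class-defining genes were left out of the tests. DESeq2 1.42.0 was an alternative. Thinning drew 3500 UMIs per cell without replacement. The fit was checked on simulated counts.

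The members, lists and limits were chosen with earlier results of these data known, and the quiet bins after the data were seen. Members given by run were Mcm2, Mcm5, Pcna, the 10 highest and 6 lowest by percent of the G2/M level kept, and those called in the interaction, with others added after their values were seen. Of the other lists, up to 4 called genes with a mean of at least 10 CPM were named per comparison. Promoters and their coordinates are from RefSeq, GRCm38.p6, and gene overlaps from the GENCODE annotation of GRCm38. Astrocyte-marker cells held at least 4 and microglia-marker cells at least 5 UMIs of their lists at 3500 UMIs. Shares and counts of cells were not tested, and those given by run or with an SD show the spread between runs. A result for 1 gene of the S phase list is not reported here.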

Additional observations from a re-analysis of the deposited data

Results flagged for a closer look

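The log2 change in G2/M over non-cycling cells differed between Igfbp2-high and Igfbp2-low cells for 36 members, by the interaction term of the edgeR fit (adjusted p under 0.05). Over all genes, 9.21% had a lower and 6.65% a higher change. Each value below is the change in Igfbp2-high cells minus that in Igfbp2-low cells, and all are negative. The widest differences were those of Ung (-4.13), Cdc6 (-3.83), Hells (-3.30), Chaf1b (-3.24), Mcm3 (-3.19), Cdt1 (-2.99), Mcm10 (-2.83), Mcm5 (-2.71) and Mcm6 (-2.68). Next came Mcm2 (-2.46), Tcf19 (-2.16), Tk1 (-1.90), Lig1 (-1.78), Rrm2 (-1.72), Chaf1a (-1.66) and Pole2 (-1.51). Smaller differences were found for Pole (-1.40), Mcm4 (-1.35), Mcm7 (-1.35), Asf1b (-1.14), Cdc45 (-1.10), Pold4 (-1.02), Rfc5 (-0.97), Pcna (-0.96) and Dut (-0.92). The smallest that passed were Rpa2 (-0.89), Pold2 (-0.88), Tyms (-0.84), Prim1 (-0.84), Orc6 (-0.82), Pola1 (-0.78), Rfc3 (-0.67), Rrm1 (-0.64), Rpa1 (-0.63), Rfc4 (-0.58) and Rfc2 (-0.36). For Pold4 the level in Igfbp2-high cells was lower in G2/M than in non-cycling cells and the change in Igfbp2-low cells was near 0, and for Ung the change in Igfbp2-high cells was negative and that in Igfbp2-low cells positive. The Igfbp2-low G2/M class holds 95 cells, and 18 of them carried microglial markers, whose part in these differences was measured by leaving those cells out: 37 members then passed.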

How the results depend on the processing

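The counts of members among non-cycling cells, 40 higher and 1 lower in Igfbp2-high cells, and those for cycle state held within 1.5 times under most settings, and 1457 of 1520 member values recomputed kept their direction and side of the threshold. The 1520 values include none from quiet cells with astrocyte-marker cells kept. Under the next setting they include only those of Rfc1, Rfc2, Pold2 and Pold4, since the other members had few UMIs there. Allowing no UMI of the 77 other cycle genes at full depth left 15 Igfbp2-high cells. There 0 members were higher between the non-cycling classes (1.39% of all genes). With cycle state in Igfbp2-high cells 25 were higher and 0 lower (6.9% and 1.5%). The interaction called 0 members (0.521% of all genes higher and 0.198% lower). The median kept was 0% of the G2/M level, and Rfc1 stood at -0.51 and Rfc2 at -0.24 between the non-cycling classes. In quiet cells 9 members were higher and 3 lower between the non-cycling classes (22.7% and 22.9% of all genes). Without astrocyte-marker cells the counts were 8 and 2 (22.7% and 23.2%). With cycle state in Igfbp2-high cells 1 was lower (21.5% of all genes), and 5 were higher between G2/M classes (14.1%). The interaction called 4 lower (4.43% of all genes), and 8 without astrocyte-marker cells (4.14%). The median kept was 9.16%, and 8 members were detected more often in every run at 3500 UMIs against 23 at full depth.

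In quiet cells without astrocyte markers the following differences between Igfbp2-high and Igfbp2-low cells turned negative, Rfc1 alone passing the threshold: Mcm4 -0.31, Cdc45 -0.63, Pcna -0.10, Rfc1 -0.37, Rfc4 -0.25, Rfc5 -0.28, Pola1 -0.13, Pola2 -0.19, Prim1 -0.63, Prim2 -0.25, Pold1 -0.50, Rpa2 -0.035, Rpa3 -0.063, Rrm1 -0.087, Dut -0.20 and Fen1 -0.20. Over all non-cycling cells Rfc1 ranged from -0.001 to 0.11 when a run was left out. Ung turned to 2.38 with cycle state in quiet Igfbp2-high cells, and Cdc6 to -0.86 with classes set on thinned cells, where 1 member was lower in Igfbp2-low G2/M cells. Those classes held 2356 Igfbp2-high non-cycling and 1837 Igfbp2-high G2/M cells, against 1284 and 4280. With those classes the median member change with cycle state in Igfbp2-high cells was 0.53, against 1.87. There 35 members were higher and 3 lower (21.7% and 30.6% of all genes). Between the non-cycling classes the median was 2.19, against 1.22, with 41 higher and 1 lower (31.7% and 42.5% of all genes). Their causes were not tested.

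With cycle state in Igfbp2-high cells 1 member was lower, against 2, without a low-count filter, with DESeq2, on thinned cells, without shared barcodes and without the highest totals (14.8% to 27% of all genes). When a run was left out 1 to 2 were lower (14.4% to 25.5% of all genes). Between the G2/M classes 2 members were higher (9.09% of all genes), against 8 without a filter (14.6%), 1 on thinned cells (4.39%), 6 with classes set on thinned cells (3.51%), 5 without shared barcodes (14.9%), 6 without astrocyte-marker cells (15.2%), 4 without the highest totals (9.56%) and 2 to 4 when a run was left out (6.28% to 10.8%). The interaction called 23 members on thinned cells (3.08% of all genes lower) and 19 to 28 when a run was left out (2.95% to 5.70%). In quiet cells 3 members were higher and 2 lower with a limit of 0 UMIs, and 1 was lower with a limit of 2 UMIs, and 1 to 2 when a run was left out. No share over all genes was computed for these quiet settings.

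Without the replicate block 40 members were higher and 1 lower between the non-cycling classes (22.4% and 23.7% of all genes). With cycle state the counts were 40 and 1 in Igfbp2-high cells (14.7% and 18%) and 41 and 0 in Igfbp2-low cells (17.9% and 17.5%). Between the G2/M classes they were 1 and 1 (7.08% and 7.28% of all genes). The interaction called 28 lower (5.63% of all genes). Between quiet cells 8 were higher and 1 lower, with no share over all genes computed. The Igfbp2-low G2/M class of 95 cells and members with fewer than 10 UMIs in quiet Igfbp2-high cells limit the precision.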
